A study of Oncorhynchus kisutch with 221 samples.

Results

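Wild coho salmon (Oncorhynchus kisutch) smolts of 3 rivers were compared in their white muscle. The fish were chosen by their labels alone, as smolts caught in a river and of wild origin, which gave 20 of the 221 fish of the series and 20 of its 48 smolts. There were 8 smolts of the Chilliwack River, caught in 2008, 6 of the Salmon River, caught in 2009, and 6 of the Capilano River, caught in 2009. All were in fresh water, and no treatment is given. The labels place the Salmon River fish in the Fraser region and the Capilano fish in the region S_Main. Sex is unknown for all 8 Chilliwack fish. Of the Salmon River fish 1 was female, 2 were male and 3 unknown, and of the Capilano fish 1 was female, 1 male and 4 unknown. Each fish was a separate animal with an array of its own, on which its amplified RNA in one Alexa dye was set against a pool of the series' muscle RNA in another, with no dye swap. The other fish of the series, parr, hatchery smolts and ocean fish, served as background. Fish are numbered within each river only to name them. Year and river cannot be told apart for Chilliwack, whereas Salmon and Capilano are of 1 year.

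Coho hatch in streams, spend their early life there as parr, and turn into smolts before they go to sea. During this change the fish become slimmer and silvery and their gills prepare to excrete salt, under the control of hormones that include thyroid hormone, cortisol and growth hormone. White muscle, the fast-twitch tissue that makes up most of the fillet, burns mainly glycogen for bursts of swimming, and it holds much of the body's protein. Coho return to the stream of their birth to spawn, so that fish of different rivers belong to partly separate breeding populations.

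The array held 43636 probes besides 60 control rows, and 19966 to 28312 probes had a value on each of the 20 arrays. A probe was tested when at least 4 fish of each river had a value, which left 19617. Values are log2 ratios that are likely fish over pool, so that a difference of 0 between rivers means equal ratios. If they were pool over fish, higher and lower would trade places throughout. The probes carry no gene names here, and they are called by their position on the array. For the same reason markers of muscle or of other cell types could not be checked. In a bulk tissue, fewer cells of a type and less RNA per cell cannot be told apart.

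Of the 20 fish, 3 stood apart from the others of their river. These 3 are also the only ones of the 20 labelled male, the rest being female or of unknown sex. Over the tested probes, Salmon 5 and Salmon 6, which lay on 1 slide, correlated with Salmon 1 to 4, on other slides, at a mean Pearson r of -0.029 (8 pairs). The mean r was 0.624 between Salmon 5 and Salmon 6 (1 pair) and 0.467 among Salmon 1 to 4 (6 pairs). Salmon 5 and 6 were nearer to the Chilliwack fish, at a mean r of 0.465 (16 pairs), than Salmon 1 to 4 were, at 0.009 (32 pairs). With Capilano 1 to 5 the mean r was 0.31 for Salmon 5 and 6 (10 pairs) and 0.0 for Salmon 1 to 4 (20 pairs). Salmon 1 to 4 were thus the Salmon fish less like Chilliwack and like Capilano 1 to 5. Capilano 6, the only wild Capilano fish on its slide, had a mean r of 0.061 with Capilano 1 to 5 (5 pairs), which correlated among themselves at 0.584 (10 pairs). Capilano 1 was also the only wild Capilano fish on its slide, and had r of 0.438 to 0.731 with Capilano 2 to 5. Salmon 5 had r of 0.47 and 0.483 with 2 hatchery smolts of the Puntledge River on its slide, and Salmon 6 had lower values of 0.34 and 0.307 with the same fish. With all 9 Puntledge smolts the mean r was 0.159 for Salmon 5 (highest 0.483) and 0.009 for Salmon 6 (highest 0.346). Capilano 6 shared its slide with fish of other groups and had r of 0.474 with a hatchery smolt of the Capilano River and 0.293 and 0.425 with 2 summer ocean fish. Its mean r was 0.249 with all 9 hatchery smolts of the Capilano River (highest 0.474) and 0.171 with all 64 summer ocean fish (highest 0.425). All pairs share the probes and the pool, so these values are descriptions. The part of the slide or of sex in the positions of Salmon 5, Salmon 6 and Capilano 6, or of Salmon 1 to 4, was not tested.

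Over all pairs within a river, the Chilliwack smolts had the highest mean r, though Capilano 1 to 5 among themselves came close, at 0.584 (10 pairs). Pairs of fish within the Chilliwack River had a mean r of 0.587 (28 pairs), against 0.213 within the Salmon River (15 pairs) and 0.41 within the Capilano River (15 pairs). Between rivers, the mean r was 0.398 for Chilliwack with Capilano (48 pairs), 0.161 for Chilliwack with Salmon (48 pairs) and 0.106 for Salmon with Capilano (36 pairs). The lowest single value, -0.318, was between Salmon 4 and Capilano 1. Pairs of the same river on 1 slide had a mean r of 0.583 (13 pairs, median 0.6), and those of the same river on different slides 0.404 (45 pairs, median 0.527). The 45 include the 8 pairs of Salmon 5 and 6 with Salmon 1 to 4 (mean r -0.029). They also include the 5 pairs of Capilano 6 with Capilano 1 to 5 (mean r 0.061), so the lower mean is not a measure of the slide alone. Of 14 control rows in the same limma fit, 0 passed in each of the 3 comparisons, and 2, 1 and 0 had an unadjusted p under 0.05. Even so, 13 of the 14 were higher in Salmon than in Capilano fish and 12 were lower in Chilliwack than in Salmon fish, with a median absolute difference of 0.212 and 0.17, against 0.27 and 0.24 over all tested probes. Between Chilliwack and Capilano fish 9 were higher and 5 lower, with a median of 0.062, against 0.21. The part of what moved the control rows in the probe counts was not tested.

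**Figure D1:**
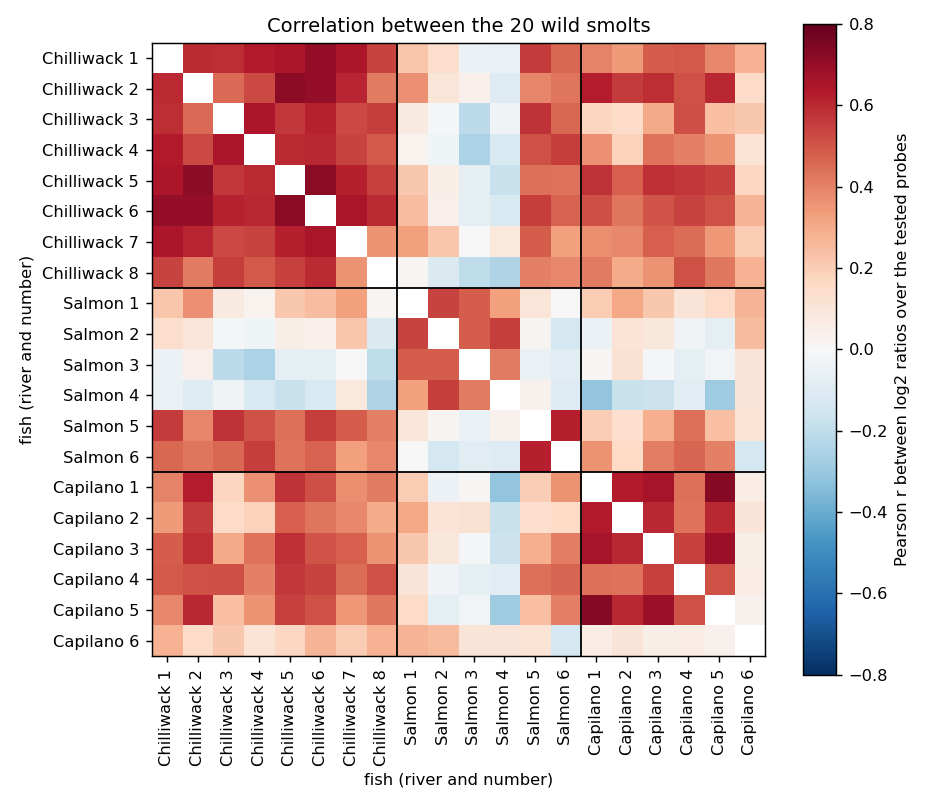
Pearson r between the log2 ratios of each pair of the 20 wild smolts over the tested probes, with fish along both axes by river (Chilliwack, Salmon, Capilano) and number, and colour giving r. Chilliwack fish form a block of positive values (mean r 0.587), Salmon 1 to 4 and Salmon 5 and 6 form separate blocks, and Capilano 6 has low values with Capilano 1 to 5 (mean r 0.061).

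The number of probes that differed among the rivers depended on how the slide was treated. A moderated F-test over the 3 rivers passed at 2018 of the 19617 probes (10.3%) in limma, at a Benjamini-Hochberg adjusted p under 0.05. Only 1 slide held wild smolts of more than 1 river. The number was 460 (2.34%) with slide as a random block and, in a fit of all fish with slide as a fixed block, 190 (0.969%). All 460 were among the 2018, but only 82 of the 190 were. In the main fit the Salmon River mean most often stood off from the other rivers. It was the highest, with the others closer to each other, for 729 of the 2018 probes, which is 36.1% of the called probes and 22.6% of all tested. It was the lowest, with the others closer to each other, for 305 (15.1% of the called and 18.1% of the tested probes). Read as pool over fish, Salmon would be the lowest for the 729 and the highest for the 305. These patterns were read only from the values as deposited, without further normalization. Chilliwack stood off as the highest for 207 (10.3% of the called and 13.2% of the tested probes) and as the lowest for 240 (11.9% and 13.6%). Capilano did so for 281 (13.9% and 15.7%) and 256 (12.7% and 16.8%). Without Salmon 5, Salmon 6 and Capilano 6 the F-test passed at 6655 probes (33.9%), of which 1958 were among the 2018. These 3 fish were set aside because of their values on these arrays, so the larger counts without them are not independent of that choice. They are also the only wild smolts labelled male.

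Between Salmon and Capilano smolts, both of 2009, 1386 probes passed (7.07%), of which 859 were higher (4.38% of those tested) and 527 lower (2.69%) in Salmon fish. The split was more even with quantile normalization, at 793 higher and 684 lower, and with median centring, at 770 and 594. The median absolute difference of the called probes was 0.832 on the log2 scale. With slide as a random block, 212 passed (1.08%), all among the 1386, and no slide held fish of both rivers. With slide as a fixed block in a fit of all fish, 425 passed (2.17%), of which only 153 were among the 1386. Of the 1386, 1336 kept their direction there. In the fit of all fish with no block 602 passed, of which 514 were among the 1386. Without Salmon 5, Salmon 6 and Capilano 6, 5111 passed (26.1%), among them 1306 of the 1386. The values of Salmon and Capilano fish did not overlap at 551 of the tested probes (2.81%), of which 393 were among the called ones.

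C041R033 and C160R103 had the largest differences towards Salmon among called probes whose values did not overlap between the rivers. The log2 ratio of C041R033 was 1.179, 0.165, -2.295 and -0.715 in Salmon 3, 4, 5 and 6, against -4.262 to -3.028 with a median of -3.46 in the 6 Capilano fish. Every measured Salmon fish lay above every Capilano fish. The difference was 3.145 (SE 0.488, adjusted p = 0.00217, limma). Salmon 1 and Salmon 2 had no value for C041R033, and they also had the lowest values of the Salmon fish for C160R103. C160R103 was at -2.395, -2.177, 0.728, 0.862, -1.201 and 0.41 in Salmon 1 to 6, against -4.223 to -2.6 with a median of -3.857 in Capilano fish. Its difference was 2.979 (SE 0.52, adjusted p = 0.0036, limma). The 6 Salmon fish spread over more than 3 log2 units on C160R103 and none reached down to the highest Capilano fish. Chilliwack fish, at -5.221 to -2.907, overlapped with Capilano fish and not with Salmon fish.

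C019R107 and C266R060 were the probes furthest lower in Salmon fish by the same rule. C019R107 ran from -1.433 to -0.564 with a median of -0.913 in the 6 Salmon fish, against 0.12 to 2.57 with a median of 1.565 in the 6 Capilano fish. The difference was -2.276 (SE 0.391, adjusted p = 0.00346, limma). The Salmon fish lay close together, Salmon 5 and Salmon 6 included, whereas Capilano 5 and Capilano 6, at 0.375 and 0.12, were the lowest of the Capilano fish. C266R060 ran from -0.714 to 0.036 in the 6 Salmon fish, against 0.811 to 1.246 in 5 Capilano fish, and Capilano 6 had no value. The difference was -1.353 (SE 0.268, adjusted p = 0.00917, limma). C266R060 was also lower in Chilliwack fish than in Capilano fish, by a difference of -1.217 (SE 0.252, adjusted p = 0.0289, limma) with no overlap. The 5 measured wild Capilano fish were thus above both other rivers. Hatchery smolts of the Capilano River had lower means than the wild ones on C266R060 and C019R107. Their means were -0.05 ± 0.58 and -0.085 ± 1.187 (SD, n = 9). On C041R033 and C160R103 they ran from -4.188 to 1.501 and from -4.425 to 2.007, which takes in every measured Salmon fish. These differences between wild and hatchery fish were not tested. In a fit of all fish with slide as a fixed block, 3 of these 4 probes no longer passed, though 2 of the 3 had larger differences. They were 4.304 for C041R033 (adjusted p = 0.289), 5.752 for C160R103 (adjusted p = 0.0666), -1.674 for C019R107 (adjusted p = 0.17) and -1.999 for C266R060 (adjusted p = 0.00618). C041R033 and C160R103 also missed the threshold in the fit of all fish with no block, at unmoved differences (adjusted p = 0.0798 and 0.0955, limma). All 4 passed with slide as a random block.

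Between Chilliwack and Salmon smolts, 1234 probes passed (6.29%), of which 406 were higher (2.07%) and 828 lower (4.22%) in Chilliwack fish. With quantile normalization the split was 648 higher and 846 lower. The median absolute difference of the called probes was 0.886. These rivers differ in year as well as in river. With slide as a random block 425 passed (2.17%), all among the 1234. With slide as a fixed block in a fit of all fish, 74 passed (0.377%), of which only 37 were among the 1234. Of the 1234, 1198 kept their direction there. Without Salmon 5 and Salmon 6, the fish closest to Chilliwack, 4156 passed (21.2%), and with Salmon 5 and Salmon 6 alone from the Salmon River 146 passed (0.749% of 19483). The last fit had only those Salmon fish, from 1 slide, so its count is not a measure of likeness alone. Salmon minus Capilano gave 387 in that fit. Values did not overlap at 429 probes (2.19%), of which 353 were called.

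The probes furthest lower in Chilliwack fish were C176R119 and C027R055, with the widest differences of any named probe. C176R119 ran from -6.84 to -5.654 in the 8 Chilliwack fish, against -5.374, -2.693, 1.528, 1.184, -0.84 and -0.168 in Salmon 1 to 6. The difference was -5.152 (SE 0.805, adjusted p = 0.000466, limma). Chilliwack fish were uniformly low, Salmon 1 was just above them, and Salmon 3 and Salmon 4 were the highest. C027R055 ran from -6.345 to -4.758 in Chilliwack fish, against -4.454, -2.435, 1.35, 1.086, -0.457 and 0.836 in Salmon 1 to 6. Its difference was -5.079 (SE 0.723, adjusted p = 0.000195, limma). On both probes Salmon 1 was the lowest and Salmon 2 the next lowest of the Salmon fish, as they were on C160R103, and Salmon 3 or Salmon 4 was the highest. Neither passed with slide as a fixed block in a fit of all fish, at -8.665 (adjusted p = 0.0632) and -7.295 (adjusted p = 0.128, limma), and with slide as a random block both did. Capilano fish lay between, with means of -4.186 ± 1.58 on C176R119 and -3.631 ± 1.362 on C027R055 (SD, n = 6). The same probes were low and narrow in the 9 parr, with means of -5.943 ± 0.364 and -5.534 ± 0.419 (SD), and wide in the 76 fall ocean fish, with means of -2.357 ± 2.826 and -1.847 ± 2.752 (SD). The parr were hatchery fish with the river and year labels of the Chilliwack smolts, so stage, river and year cannot be told apart there.

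The probes furthest higher in Chilliwack fish were C231R139 and C147R055. C231R139 ran from -0.268 to 1.885 with a median of 0.306 in Chilliwack fish, against -2.456 to -0.692 with a median of -1.688 in Salmon fish. The difference was 2.29 (SE 0.46, adjusted p = 0.00411, limma). The gap between the rivers' nearest fish was set by Salmon 6, the highest Salmon fish, and Chilliwack 1, the lowest Chilliwack fish. C147R055 ran from 0.94 to 2.204 in Chilliwack fish, against -1.504, -1.214, -1.312, -1.163, 0.529 and 0.454 in Salmon 1 to 6. Its difference was 2.202 (SE 0.375, adjusted p = 0.00103, limma). Salmon 5 and Salmon 6 lay between Salmon 1 to 4 and the Chilliwack fish. With only Salmon 5 and Salmon 6 kept from the Salmon River, the difference was 1.495 for C231R139 (adjusted p = 0.542) and 1.009 for C147R055 (adjusted p = 0.55, limma), and those 2 fish were from 1 slide. Capilano 6, at -1.501 on C147R055, was with Salmon 1 to 4, while Capilano 1 to 5 had values from 0.118 to 1.075. In a fit of all fish with slide as a fixed block, C231R139 had a difference of 0.67 and did not pass (adjusted p = 0.838), and C147R055 passed at 3.064 (adjusted p = 0.00879, limma).

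Chilliwack and Capilano smolts differed at fewer probes: 186 passed (0.948%), of which 79 were higher (0.403%) and 107 lower (0.545%) in Chilliwack fish. The median absolute difference of the called probes was 0.978. With slide as a random block limma called 0 (0%), and 2784 had an unadjusted p under 0.05. Without Capilano 6, 1052 passed (5.36%), all 186 among them. Values did not overlap at 177 probes (0.902%), of which 58 were called. Chilliwack 8 and Capilano 1 shared a slide. When both were left out, 79 probes passed, and of the 76 with a value in both fish, Chilliwack 8 and Capilano 1 differed in the same direction at 55 (72.4%), against 60.8% of all 18283 probes with both values.

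C034R034 and C053R112 were the probes furthest higher in Chilliwack fish. C034R034 ran from 0.391 to 1.602 with a median of 0.6 in Chilliwack fish, against -1.41 to 0.106 with a median of -1.107 in Capilano fish. The difference was 1.663 (SE 0.291, adjusted p = 0.0153, limma). Salmon 5 and Salmon 6, at 1.037 and 0.352, were within or next to the Chilliwack range, and Salmon 1 to 4 were all at or below -0.504. C053R112 ran from 0.903 to 1.375 in Chilliwack fish, against -0.526 to 0.763 in Capilano fish. Its difference was 1.198 (SE 0.185, adjusted p = 0.0126, limma). Chilliwack fish were narrowly spread on C053R112 (SD 0.196, n = 8), and Capilano 6 was the Capilano fish nearest to them. All 6 Salmon fish lay below the Chilliwack fish too, at -0.272 to 0.572, with a difference of 0.905 (SE 0.185, adjusted p = 0.00465, limma) for Chilliwack minus Salmon.

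C075R137 and C240R162 were the probes furthest lower in Chilliwack fish. C075R137 ran from -4.116 to -2.889 in Chilliwack fish, against -2.1 to -0.893 in Capilano fish. The difference was -2.132 (SE 0.423, adjusted p = 0.0231, limma). Salmon fish, at -2.351 to 1.296, were also all above the Chilliwack fish, by a difference of -2.758 for Chilliwack minus Salmon (SE 0.423, adjusted p = 0.000386, limma). C240R162 ran from -2.599 to -0.527 with a median of -1.565 in Chilliwack fish, against -0.308 to 1.354 with a median of 0.339 in Capilano fish. Its difference was -1.895 (SE 0.361, adjusted p = 0.0213, limma). Salmon fish, at -1.744 to 0.404, overlapped with both other rivers on C240R162. With slide as a random block the differences were 1.615 for C034R034, 1.183 for C053R112, -1.987 for C075R137 and -1.868 for C240R162, and the adjusted p was 0.0543 to 0.0887. None passed with slide as a fixed block in a fit of all fish either: C075R137 was at -0.19 and C053R112 at 0.651 (adjusted p = 0.999 for both), C034R034 at 1.382 (adjusted p = 0.604) and C240R162 at -1.984 (adjusted p = 0.522, limma).

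**Figure D2:**
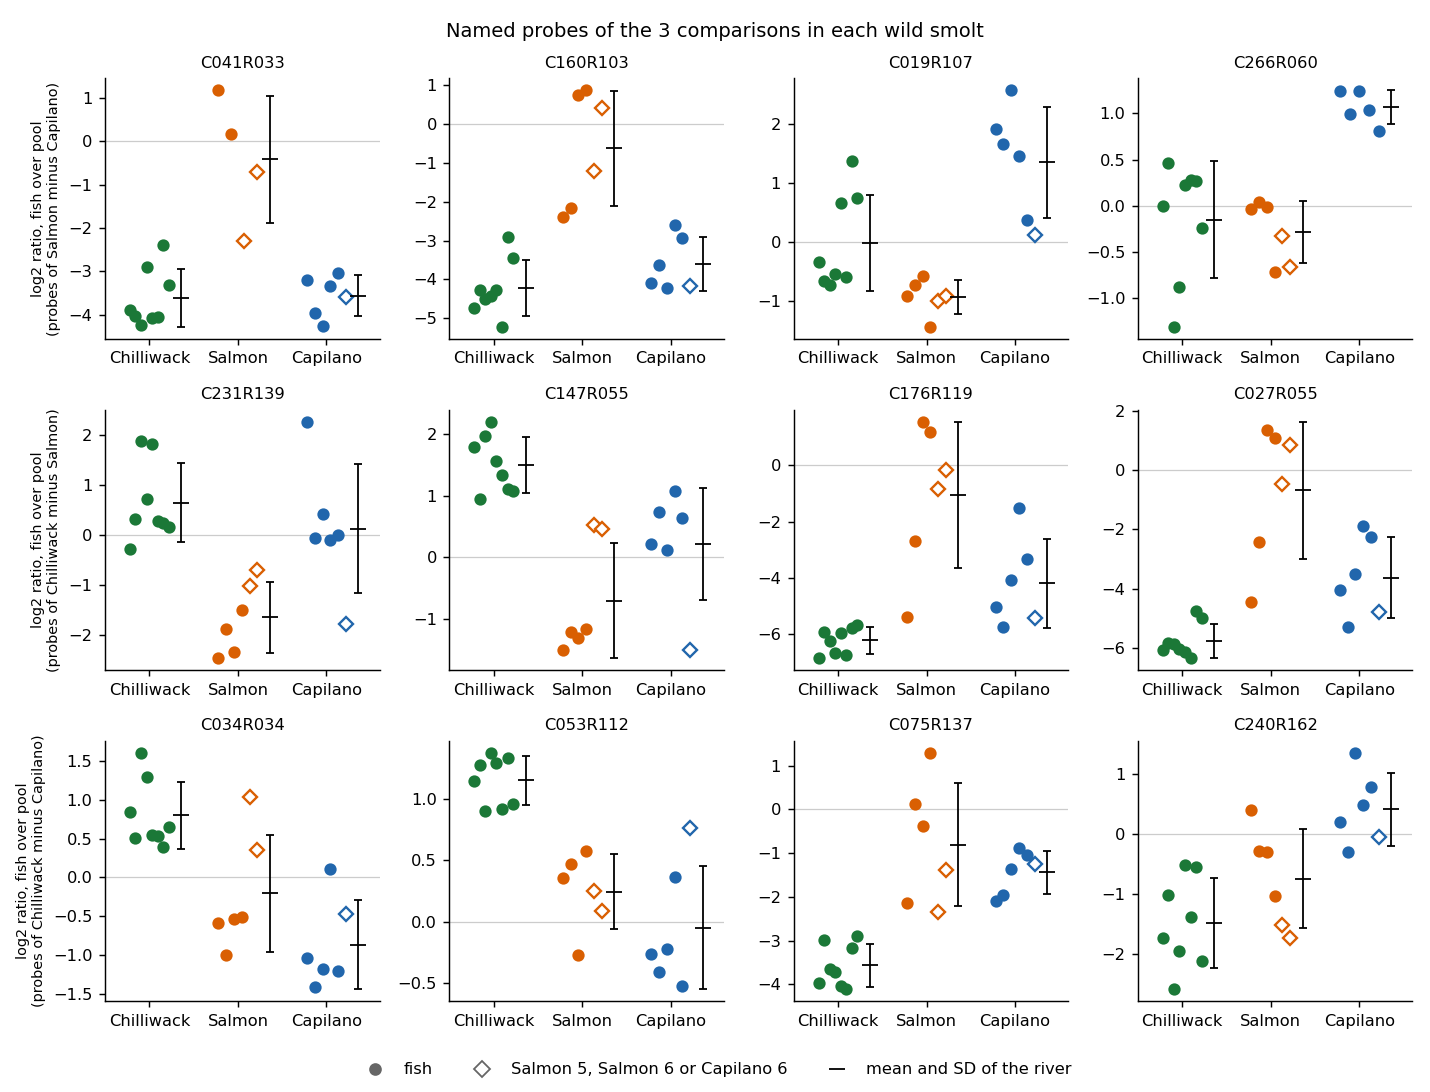
Log2 ratio of fish over pool (vertical axis) of the named probes in each wild smolt by river, with 1 panel per probe and 1 row per comparison; open diamonds are Salmon 5, Salmon 6 and Capilano 6, and bars show the mean and SD of the river. The panels of C160R103, C176R119 and C027R055 show Salmon fish spread over more than 3 log2 units while Chilliwack fish stay low, and in the panel of C147R055 Capilano 6 (-1.501) lies with Salmon 1 to 4.

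**Figure D3:**
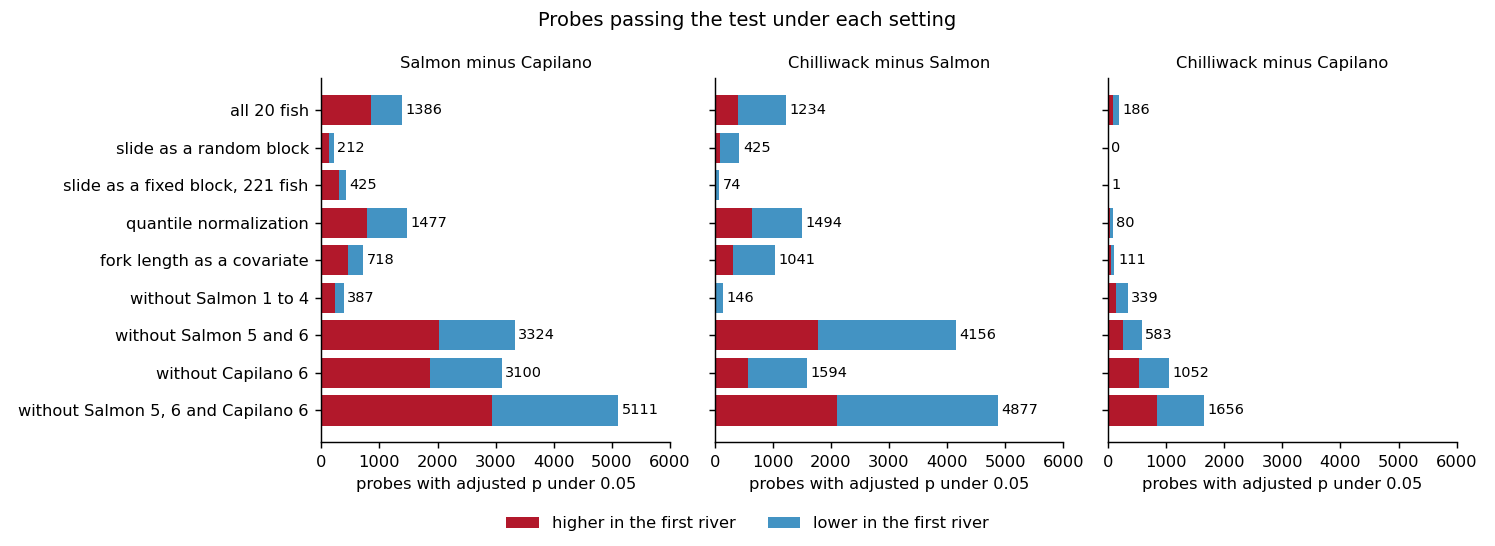
Number of probes at an adjusted p under 0.05 (horizontal axis) for each comparison under the settings named on the vertical axis, split into probes higher and lower in the first river of the title. Salmon minus Capilano had 1386 with all 20 fish, 212 with slide as a random block and 5111 without Salmon 5, Salmon 6 and Capilano 6.

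Among the probes named in an earlier analysis of the series, 4 had set parr apart from later stages. The parr, all hatchery fish, share their river and year labels with the Chilliwack smolts. They were chosen there with these 20 smolts in the smolt group, but not for any difference between rivers. C249R116 and C151R127 were high in parr, at means of 2.51 ± 1.536 and 2.19 ± 1.309 (SD, n = 9), and low in fall ocean fish, at -4.406 ± 2.154 and -4.25 ± 2.129 (SD, n = 76). In the wild smolts C249R116 ran from -1.896 to 0.581 with a median of 0.144 in Chilliwack fish, from -3.958 to -0.842 with a median of -2.46 in Salmon fish, and from -5.346 to 0.543 with a median of -0.456 in Capilano fish. Chilliwack and Salmon fish overlapped, and the difference was 2.404 (SE 0.69, adjusted p = 0.0401, limma). C151R127 had a difference of 2.844 between them (SE 0.826, adjusted p = 0.0425, limma). Neither probe passed for Salmon minus Capilano, at -1.448 (adjusted p = 0.219) and -1.997 (adjusted p = 0.157, limma). Capilano 6, at -5.346 and -6.077, was the lowest of all 20 fish on both, while Capilano 1 to 5 were at -0.746 or above on C249R116 and at -0.117 or above on C151R127.

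C189R113 and C209R021 were low in parr, at means of -5.228 ± 1.495 and -4.186 ± 1.143 (SD, n = 9), and near 0 in fall fish, at 0.177 ± 1.64 and 0.391 ± 1.38 (SD, n = 76). C189R113 was at -5.354 to -1.52 in Chilliwack fish, at -0.966, -0.126, -0.974, -0.557, -1.789 and -4.219 in Salmon 1 to 6, and at -5.429 to 0.072 in Capilano fish. Capilano 6 and Salmon 1 to 4 were the 5 highest fish on C189R113 and the 5 lowest on C249R116, and Salmon 6 was among the low ones on C189R113. No comparison of rivers passed on C189R113 or C209R021; the smallest adjusted p was 0.0673, for C209R021 in Chilliwack minus Salmon at -2.093 (SE 0.682, limma). The pair of sex probes, C108R116 and C098R070, overlapped between all rivers, with an adjusted p of 0.382 or more in every comparison (limma). On C108R116 Salmon 5, Salmon 6 and Capilano 6, labelled male, were at -1.431, -2.352 and -2.169. Salmon 4 and Capilano 5, labelled female, were at -1.489 and -2.355, and the highest fish was Capilano 4, of unknown sex, at 0.782. On C098R070 the same males were at -0.983, -1.785 and -2.228, and the same females at -3.416 and -2.117.

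**Figure D4:**
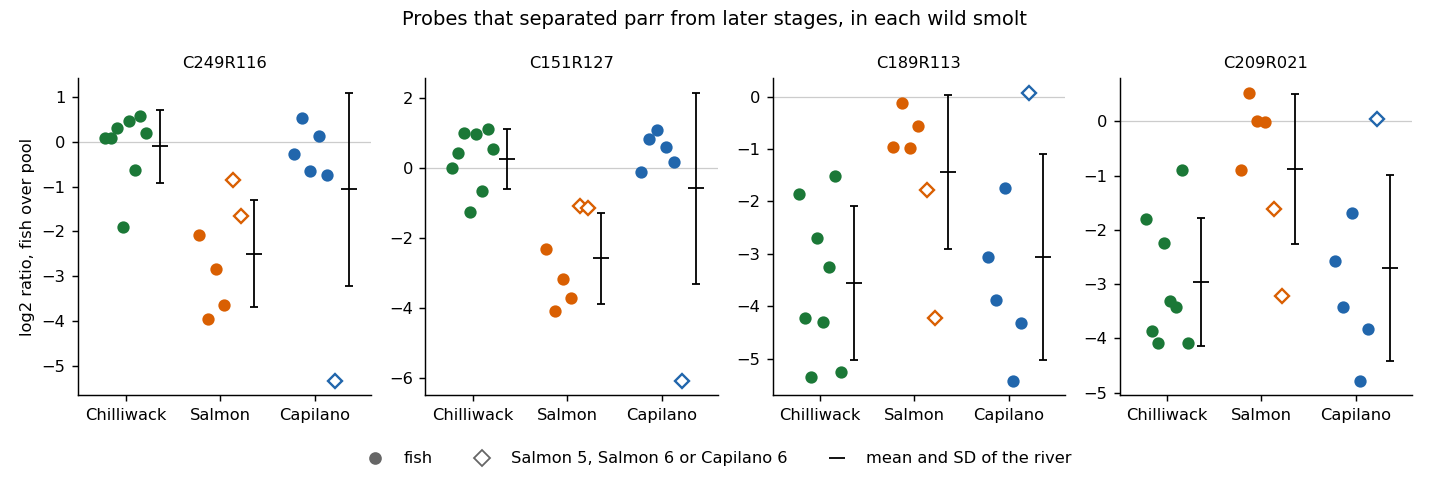
Log2 ratio of fish over pool (vertical axis) of the 4 probes that set parr apart, in each wild smolt by river; open diamonds are Salmon 5, Salmon 6 and Capilano 6, and bars show the mean and SD of the river. Capilano 6 lies at -5.346 and -6.077 on C249R116 and C151R127 and near 0 on C189R113 and C209R021, apart from Capilano 1 to 5.

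The 20 smolts were placed on axes drawn from the values of the 201 other fish of the series. They entered only the choice of probes, since a probe needed a value in all 221 fish. Most of the array's 43636 probes were thus left out. The axes used the 6659 probes with a value in every fish: the first 3 principal components, which held 17.3%, 10.3% and 7.63% of the variance of those fish, and lines on which the mean of the 28 hatchery smolts is 0 and the mean of the 9 parr, or of the 15 spring ocean fish, is 1. Components were turned so that fall fish lie above parr, though on components 2 and 3 these groups differed little against their spread. Parr and fall fish lay at -0.02431 ± 5.835 and 1.959 ± 15.38 on component 2, and at -3.348 ± 17.78 and -0.01604 ± 11.9 on component 3 (SD, n = 9 and 76). With 15 tests of 5 axes and 3 pairs of rivers, 1 passed an adjusted p under 0.05 (exact permutation test, two-sided). On component 3, Salmon fish lay at -1.931 ± 5.121 and Capilano fish at -20.25 ± 7.76 (SD, n = 6 each), a difference of 18.32 (exact p = 0.002165, adjusted p = 0.03247), and the values did not overlap. The exact p was the smallest that 6 against 6 fish allow. The test treated each fish as independent, and no slide held fish of both rivers. Slide did not enter the permutation tests, so its part in this difference was not tested. Chilliwack fish lay at -9.775 ± 9.312 (SD, n = 8) and overlapped with both. The 9 hatchery smolts of the Capilano River were at -4.401 ± 4.617 (SD), away from the wild Capilano fish, a difference that was not tested.

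On the parr line the wild Capilano fish lay nearest to parr of the 3 rivers. All the parr were hatchery fish of the Chilliwack River of 2008, and the hatchery smolts were of 2009 and of other rivers. Stage, river and year thus cannot be told apart on this line. Positions ran from -0.1354 to 0.4364 with a median of 0.1937 in Chilliwack fish, from -0.1998 to 0.1897 with a median of 0.002837 in Salmon fish, and from -0.05004 to 0.5892 with a median of 0.4432 in Capilano fish. Capilano 1 to 5 were all at 0.3495 or above, beyond every Salmon fish, and Capilano 6 lay among the Salmon fish. The difference of Salmon minus Capilano was -0.3976 (exact p = 0.01082, adjusted p = 0.08117), and it did not pass. Without Capilano 6, the Capilano fish farthest from parr, it was -0.4855 (adjusted p = 0.01748, exact permutation test). On component 2, Salmon 5 and Salmon 6, at 23.55 and 31.39, lay within the Chilliwack range of 7.552 to 39.75, and Salmon 1 to 4 were all at -8.101 or below. The difference of Chilliwack minus Salmon on component 2 was 20.12 with all fish and did not pass (adjusted p = 0.09366, exact permutation test). Without Salmon 5 and Salmon 6 it was 33.56, a larger value that follows from leaving out the Salmon fish that lay with Chilliwack. On the spring line no pair of rivers passed, and Salmon 1 and Salmon 3, at 0.9161 and 0.7208, lay furthest along it of the 20 smolts. The 15 spring ocean fish that set this line were all wild, and the 28 smolts at its other end were all hatchery fish. Origin and entry to the sea thus cannot be told apart on it. Parr lay at 0.6589 ± 0.342 (SD, n = 9) and summer ocean fish at 0.4143 ± 0.4302 (SD, n = 64) on the same line. A high position there thus does not mark spring ocean fish alone.

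**Figure D5:**
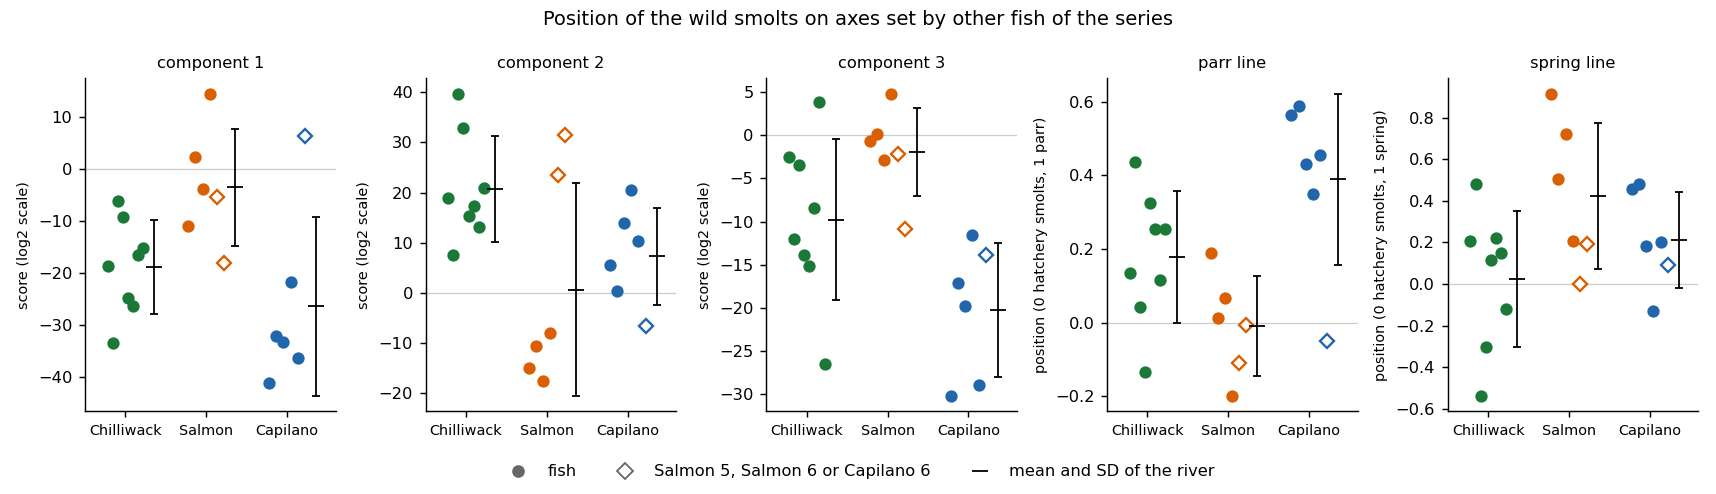
Positions of the wild smolts, by river, on 3 principal components and on the lines from hatchery smolts (0) to parr or to spring ocean fish (1), all set by other fish; open diamonds are Salmon 5, Salmon 6 and Capilano 6, and bars show the mean and SD of the river. On component 3 all Salmon fish lie above all Capilano fish, and on the parr line Capilano 1 to 5 (0.3495 or above) lie above all Salmon fish while Capilano 6 (-0.05004) does not.

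Salmon fish averaged 3.255 g heavier and 1.033 cm longer than Capilano fish, but no difference in size passed a test with 6 to 8 fish per river. Fork length ran from 9.0 to 11.8 cm in Chilliwack, from 8.8 to 12.0 cm in Salmon and from 7.4 to 10.7 cm in Capilano fish. Total mass averaged 11.34 ± 3.077 g in Chilliwack (SD, n = 8), 12.67 ± 3.959 g in Salmon (SD, n = 6) and 9.413 ± 2.895 g in Capilano fish (SD, n = 6). Condition factor, 100 times mass in g over the cube of length in cm, was 1.044 ± 0.06337 in Chilliwack fish (SD, n = 8), 0.9811 ± 0.02938 in Salmon fish and 0.9835 ± 0.04841 in Capilano fish (SD, n = 6 each). None of the 9 tests of size passed; the smallest adjusted p was 0.2697, for condition factor in Chilliwack minus Salmon, at 0.06288 (exact p = 0.02997, exact permutation test, two-sided). With condition factor as a covariate 628 probes passed for Chilliwack minus Salmon, and with fork length 718 passed for Salmon minus Capilano. Neither the share of empty cells nor the interquartile range of an array passed a test between rivers (6 tests, smallest adjusted p = 0.3467, exact permutation test).

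The probes called between rivers were then read in separate fish with the same region or year labels. Wild ocean fish of 2009 caught in summer or fall were compared between the region labels Fraser (17 fish) and S_Main (18 fish). With season as a covariate, limma called 0 of 21576 probes (0%), and 1228 had an unadjusted p under 0.05. Of the 1377 Salmon minus Capilano probes that could be measured there, 709 had the same direction (51.5%, against 51% of all 19301 shared probes). Between hatchery smolts of the Chehalis River (region Fraser, 10 fish) and of the Capilano River (region S_Main, 9 fish), 4 of 22690 probes passed (0.0176%), and none of the 1378 river probes measured there was among them. Of those 1378, 455 had the same direction (33%, against 40.8% of all 19453). The 4 named probes of Salmon minus Capilano went both ways and none passed. C041R033 was at 0.414 (SE 0.611) between the ocean fish and 0.368 (SE 0.624) between the hatchery smolts, and C160R103 at 0.578 (SE 0.654) and 0.721 (SE 0.762), all with the sign of the wild smolts. C019R107, at 0.13 (SE 0.219) and 0.024 (SE 0.416), had the opposite sign in both, and C266R060 kept its sign between the ocean fish, at -0.045 (SE 0.228), and turned between the hatchery smolts, at 0.642 (SE 0.286). The smallest adjusted p of these 8 values was 0.345 (limma).

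For the year, wild ocean fish of 2008 (13 fish) and of 2009 (55 fish) were compared, with season as a covariate. All were caught in summer or fall and in the same areas. Most of the fish of 2008 carry the region label Fraser and none S_Main, whereas those of 2009 are of Fraser, S_Main and other regions. Region was not in the fit, so year and region cannot be fully told apart here. In limma 565 of 21505 probes passed (2.63%). Of the 1228 Chilliwack minus Salmon probes measured there, 803 had the same direction as 2008 minus 2009 (65.4%, against 59.2% of all 19306 shared probes) and 48 passed in both. Of the 185 Chilliwack minus Capilano probes, 157 had the same direction (84.9%, against 62.6% of all) and 8 passed in both. C231R139 was among those that passed in the ocean fish, at 1.173 (SE 0.32, adjusted p = 0.0283, limma), with the same sign as in Chilliwack minus Salmon. C176R119 and C027R055 had the opposite sign there, at 0.809 (adjusted p = 0.666) and 0.884 (adjusted p = 0.627, limma). The year probes of the earlier analysis, C162R146 and C116R077, differed between the ocean fish at -2.375 and 2.704 (adjusted p = 1.53e-07 and 1.18e-07, limma). They were named from the same series, so these p-values cannot be taken as independent of that choice. No pair of rivers passed on them. C162R146 was at 0.347 (SE 0.204) for Chilliwack minus Salmon, opposite in sign to the year difference, and at -0.102 (SE 0.204) for Chilliwack minus Capilano, with an adjusted p of 0.305 and 0.833 (limma). C116R077 was at -1.143 to 2.467 in Chilliwack fish, at -1.543 to 0.827 in 4 Salmon fish and at -2.325 to 0.146 in Capilano fish, with a difference of 1.054 for Chilliwack minus Salmon (SE 0.565, adjusted p = 0.261, limma) and of 1.71 for Chilliwack minus Capilano (SE 0.498, adjusted p = 0.0806, limma).

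Empty cells followed the rivers at few probes. Of all 43636 probes, 5 had a value in every Salmon and no Capilano fish and 80 in every Capilano and no Salmon fish. For Chilliwack and Salmon the numbers were 23 with a value in every Chilliwack and no Salmon fish and 0 the other way, and for Chilliwack and Capilano 0 both ways. These probes had no ratio to compare and were not tested. The filter that left cells empty is not given in the sources used here.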

How the data were processed

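White muscle RNA of single fish was hybridised with a pool of the series' muscle RNA on 2-colour arrays, per the labels' protocols. The deposited table gives each fish a value per probe. Array medians of the 20 smolts lay between -0.008 and 0.0108, so the authors likely normalized the arrays. Read from their spread, the deposited values are likely log2 ratios with the fish on top of the pool: over the 115 complete probes with a variance of at least 1.6, the median log2 of the mean linear ratio was -0.077 read that way, 1.817 read as pool over fish and 0.55 read as natural logs, and in the 3016 probes with a variance under 0.2 it was 0.121 as fish over pool and -0.026 as pool over fish. How background was corrected, how values were normalized, the log base, the direction and the filter behind empty cells were not given in the sources at hand. The 20 smolts and 1 parr were read from the authors' processed table and 200 other fish from GEO's series matrix, which held equal values for the smolts.

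Fits used limma 3.58.1 in R 4.3.3 (lmFit and eBayes), with 1 coefficient per river, no covariate, and Benjamini-Hochberg adjustment over the 19617 probes with at least 4 values per river. The consensus correlation within slides was 0.209. Separate fish were fitted in the same way over probes with a value in at least 50% of each group. Exact permutation tests ran in scipy 1.17.1. Per pair, at most 2 called probes in each direction with no overlap and the largest differences are named, with 8 probes of an earlier analysis. No probe identifier matched the available gene table. The rivers, probes, lists and tests were chosen with earlier results of these data known. P-values measure the spread between fish of 1 catch label.

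The fit was also checked on simulated ratios that kept the files' empty cells and within-river spreads. Over 19617 probes, 63%, 74% and 70% of 100 probes with a true log2 change of 1 were found for Salmon minus Capilano, Chilliwack minus Salmon and Chilliwack minus Capilano, and 99%, 97% and 99% of 100 with a change of 2. Among the unchanged probes 8, 6 and 9 were called. The simulated fish had no slide effect, no fish standing apart and no difference in spread between rivers.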

Additional observations from a re-analysis of the deposited data

Results flagged for a closer look

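In 90 groups of values of 1 river, 4 held a fish whose gap to the nearest other fish was above the 95% critical value of Dixon's test. In independent groups chance alone does so in about 1 of 20, and the number 4 by itself is within that rate. The groups share fish, and some hold probes chosen because rivers did not overlap, so the rate is only a rough guide here. All 4 were Capilano 6. It had a log2 ratio of -5.346 on C249R116, against -0.746 to 0.543 in the other Capilano fish, and of -6.077 on C151R127, against -0.117 to 1.085. On C147R055 it was at -1.501, against 0.118 to 1.075. On the parr line it was at -0.05004, against 0.3495 to 0.5892. The labels give Capilano 6 as a wild male of the Capilano River, and it was the only one of the river's 6 wild smolts on its slide. Capilano 1 was likewise the only one of them on its slide.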

How the results depend on the processing

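The number of called probes depended on which fish were in the fit and on the slide. With slide as a random block the F-test passed at 460 probes, Salmon minus Capilano at 212, Chilliwack minus Salmon at 425 and Chilliwack minus Capilano at 0, and 2008 minus 2009 in wild ocean fish at 195 and Chehalis minus Capilano hatchery smolts at 0. With slide as a fixed block in a fit of all fish the numbers were 190, 425, 74 and 1 for the rivers, and without a block in that fit, an alternative chosen after seeing the data, 1168, 602 and 649 for the F-test and the first 2 pairs. Fork length as a covariate gave 1308 for the F-test, 718 for Salmon minus Capilano and 111 for Chilliwack minus Capilano, and condition factor gave 628 for Chilliwack minus Salmon and 301 for Chilliwack minus Capilano. A minimum log2 difference of 1 left 439, 513 and 86 for the 3 pairs. A fit of only the Salmon and Capilano fish gave 435. For Chilliwack minus Capilano, all smolts in the fit gave 382, eBayes with trend and robust 295 and quantile normalization 80. Median centring, the filters on empty cells and on variation, and the series matrix values kept the counts of all 4 results within 1.5 times.

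Settings that left out fish standing apart were also chosen after seeing the data. Without Salmon 5, Salmon 6 and Capilano 6 the numbers were 6655 for the F-test and 5111, 4877 and 1656 for Salmon minus Capilano, Chilliwack minus Salmon and Chilliwack minus Capilano. Without Salmon 5 and 6 they were 4851, 3324, 4156 and 583, and with only Salmon 5 and 6 kept from the Salmon River 536, 387, 146 and 339. Leaving out 1 fish at a time gave 963 to 3723 for the F-test, 495 to 3100 for Salmon minus Capilano, 602 to 2688 for Chilliwack minus Salmon and 23 to 1052 for Chilliwack minus Capilano. Salmon minus Capilano moved by over 1.5 times without Salmon 2 (622), Salmon 3 (712), Salmon 4 (495), Salmon 6 (2447), Capilano 1 (556), Capilano 2 (820), Capilano 3 (707), Capilano 5 (582) or Capilano 6 (3100). Chilliwack minus Salmon did so without Salmon 1 (767), Salmon 2 (641), Salmon 3 (602), Salmon 4 (666) or Salmon 6 (2688), and Chilliwack minus Capilano without any of 14 fish.

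On the axes set by other fish, more pairs passed without Salmon 5, Salmon 6 and Capilano 6, which were set aside for their values, so these passes are not independent of that choice: on component 1 Salmon minus Capilano at 33.5, Chilliwack minus Salmon at -19.36 and Chilliwack minus Capilano at 14.14; on component 2 Salmon minus Capilano at -22.93 and Chilliwack minus Salmon at 33.56; on the parr line Salmon minus Capilano at -0.4602 and Chilliwack minus Capilano at -0.2994; and on the spring line Chilliwack minus Salmon at -0.5613. Without Salmon 5 and 6 alone, Chilliwack minus Salmon passed at -19.36, 33.56 and -0.5613 on component 1, component 2 and the spring line, and Salmon minus Capilano at -20.14 on component 2. Leaving out 1 fish at a time, Salmon minus Capilano on component 3 was 16.32 to 20.09 and no longer passed without any of 10 fish, at an adjusted p of 0.06494, where 1 fish fewer raises the smallest p an exact test can reach. The same range was 19.26 to 29.4, -18.17 to -11.65 and 4.651 to 14.14 on component 1 for Salmon minus Capilano, Chilliwack minus Salmon and Chilliwack minus Capilano, and -0.4855 to -0.3577 and -0.2994 to -0.1666 on the parr line for Salmon minus Capilano and Chilliwack minus Capilano.

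All 12 named probes kept their direction under every alternative run. They were chosen for values that did not overlap between the rivers compared, so leaving out fish could not reverse their direction. Those settings therefore did not test it. Only settings that changed the values, or added a block or a covariate, could have reversed it. Of 442 values, 27 no longer passed, of which 10 were with slide as a fixed block and 4 with slide as a random block. No paired analysis was possible because fish numbers only name single animals. The cause of these changes was not tested. The number of arrays limits the precision, and signal over background cannot be read from the deposited ratios.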
